A study of Mus musculus with 53 samples.

Results

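Gene expression was compared in the sciatic nerve (SCN) of male C57BL/6J mice with diet- and streptozotocin-induced type 2 diabetes (T2D) and of control mice, all at 24 weeks of age. The 16 samples, of 53 in the whole series, were chosen by their labels alone. The 8 HFD-STZ samples came from mice given a high-fat diet (60% of kcal from fat) from 5 weeks of age and streptozotocin (STZ), a toxin of pancreatic beta cells, at 12 weeks (75 mg/kg, then 50 mg/kg 3 days later), and these mice were never switched back to control diet. The 8 SD samples came from age-matched mice kept on a standard control diet without STZ. Because the controls received neither agent, the effects of diet and of STZ cannot be told apart in this contrast, and the HFD group of the same age (7 samples, HFD without STZ) is given beside it. Each value is a gene's log2 expression in whole nerve by RNA-seq of polyadenylated RNA. The question was which genes distinguish nerve from mice that model T2D with peripheral neuropathy (PN) from control nerve.

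The SCN holds the axons of sensory and motor neurons, whose cell bodies lie outside the nerve, with myelinating and non-myelinating Schwann cells, fibroblasts, perineurial cells, blood vessels, macrophages and mast cells. Fat tissue lies around and within the nerve sheath, and skeletal muscle lies beside it. In obesity, fat cells enlarge and secrete adipokines such as leptin, and macrophages that take up lipid gather among them. A transcript of any of these cells can be present in a nerve library. In such bulk samples, fewer cells of a type and less RNA per cell cannot be told apart.

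Schwann cell markers were high in all 16 samples, with a mean log2 value of 17.14 to 17.95 in SD and 17.13 to 17.88 in HFD-STZ nerve, as the tissue label would require. HFD-STZ replicate 7 stood apart. It held 23 of the 25 genes with any value above 22 in the series, at 49.81 to 61.36, and these included the sensory neuron genes Avil, Calca, Scn10a and Tac1. In Scn9a, a sodium channel of pain-sensing neurons whose values stayed below 22, this replicate had 11.01 while the other 15 samples had 5.10 to 7.08. The 25 genes were left out of every test, and values without this replicate are given where it bears on a result. Correlations between samples across genes ranged from 0.914 to 0.992, no pair of samples had identical values, and the median correlation was lowest in replicate 7, at 0.937.

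To identify differentially expressed genes (DEGs), 17850 of 49568 listed genes were tested with limma, namely those whose mean over the 16 samples reached 9.99 on the linear scale. Only 6 genes (0.0336%) passed an adjusted p of 0.05, and all 6 rose in HFD-STZ nerve. They were Sez6l, Plppr4, Tph2, Slc5a7, Kcnj14 and 1700047G03Rik. An unadjusted p under 0.05 was found for 1069 genes (5.99%), of which 589 (3.3%) were higher and 480 (2.69%) lower, and the median difference over all tested genes was 0.00055. The sample titles hold numbers that fall into 8 stretches of nearby numbers, called runs here, each holding 1 SD and 1 HFD-STZ sample. The titles do not say what these numbers stand for. The 6 DEGs were higher in HFD-STZ in all 8 runs, as were 100 genes (0.56%) of all tested. With the runs as a block in the fit, however, Sez6l and Kcnj14 did not pass the adjusted test.

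**Figure D1:**
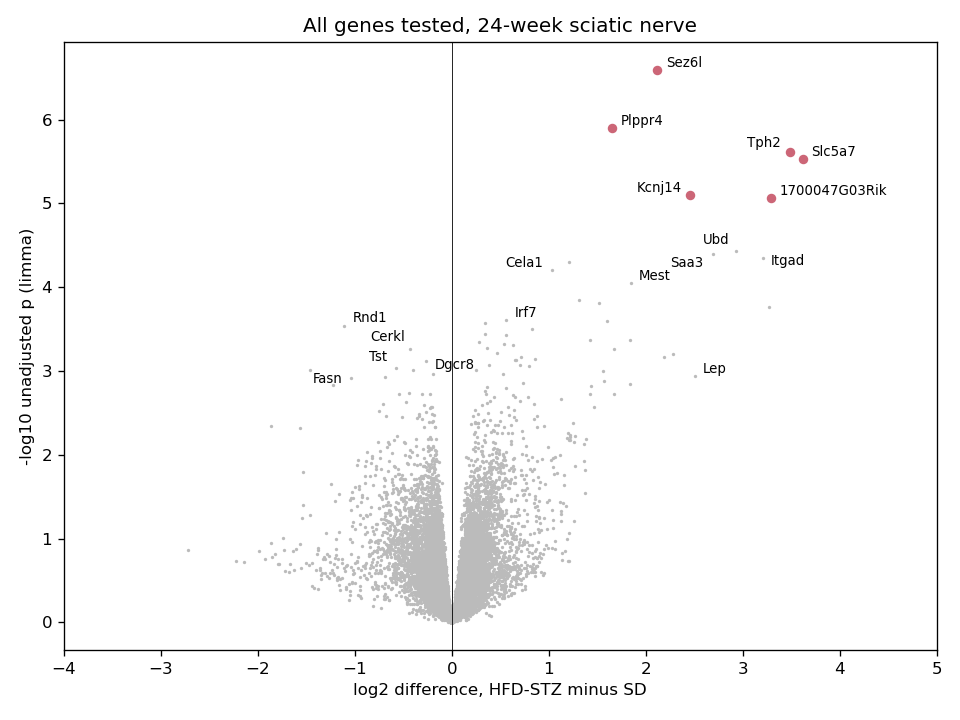
Difference against test result for the 17850 genes tested, with the log2 difference (HFD-STZ minus SD) on the horizontal axis and -log10 of the unadjusted limma p on the vertical axis. The 6 red points passed an adjusted p of 0.05 and all lie on the right, and the labelled grey points did not pass.

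Promoter sequences of the DEGs whose adjusted p stayed under 0.05 whichever sample was left out are shown because these genes carry the comparison, with the serotonin and choline genes first. They are from RefSeq (GRCm38.p6), 5′ to 3′ on the strand of the gene, from 250 bases before to 50 bases after the annotated start. Of the 6 DEGs, 5 had an entry, and Kcnj14 had none. The windows were searched on both strands for the TATA box letters TATAAA and the E-box letters CACGTG, and matches are in capitals.
Tph2, chr10:115184973-115185272, minus strand: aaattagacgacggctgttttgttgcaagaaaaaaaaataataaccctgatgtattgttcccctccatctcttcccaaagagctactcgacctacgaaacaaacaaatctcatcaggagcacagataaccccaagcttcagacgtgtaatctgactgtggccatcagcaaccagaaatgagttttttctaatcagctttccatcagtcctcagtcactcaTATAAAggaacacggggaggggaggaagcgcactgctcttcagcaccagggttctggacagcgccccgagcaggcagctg
Slc5a7, chr17:54298985-54299284, minus strand: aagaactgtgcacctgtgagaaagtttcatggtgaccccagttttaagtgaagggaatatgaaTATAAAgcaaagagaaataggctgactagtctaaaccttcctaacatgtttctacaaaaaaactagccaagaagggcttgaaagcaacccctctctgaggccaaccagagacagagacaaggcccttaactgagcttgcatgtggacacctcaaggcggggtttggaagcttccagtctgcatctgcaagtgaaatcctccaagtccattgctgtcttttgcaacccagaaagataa
Sez6l, chr5:112577149-112577448, minus strand: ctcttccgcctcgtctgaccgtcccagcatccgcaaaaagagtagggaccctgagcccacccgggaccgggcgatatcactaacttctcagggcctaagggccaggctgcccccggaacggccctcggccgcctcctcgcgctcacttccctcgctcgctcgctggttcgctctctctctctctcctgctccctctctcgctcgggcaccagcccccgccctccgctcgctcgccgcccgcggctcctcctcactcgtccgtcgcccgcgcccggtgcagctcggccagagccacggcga
Plppr4, chr3:117360827-117361126, minus strand: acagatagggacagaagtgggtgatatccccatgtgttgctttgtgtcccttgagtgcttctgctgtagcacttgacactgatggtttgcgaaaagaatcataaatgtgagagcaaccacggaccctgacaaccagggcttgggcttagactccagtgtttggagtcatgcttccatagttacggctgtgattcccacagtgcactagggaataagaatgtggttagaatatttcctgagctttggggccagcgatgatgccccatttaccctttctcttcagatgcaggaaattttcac
TATAAA began at position -30 relative to the start in Tph2 and at -187 in Slc5a7. It was found in 2 of the 5 promoters, against 13.6% of all 32851 promoter windows, and CACGTG in none of the 5, against 7.15% of all. The matches are a description of the letters in these windows.

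The DEGs with the largest differences belong to transmitter metabolism. Slc5a7 encodes the high-affinity choline transporter that supplies choline for acetylcholine synthesis (chromosome 17, 54273590 to 54299034, minus strand, GRCm38). Its log2 values were 3.65 to 5.61 (median 4.86) in SD and 5.12 to 9.65 (median 8.60) in HFD-STZ nerve. The difference was 3.62 ± 0.53 (SE, n = 8 per group), a 12.3-fold change (adjusted p = 0.0132). Replicate 6 of HFD-STZ, at 5.12, was the only one within the SD range, and the next lowest HFD-STZ value was 7.50.

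Tph2 encodes tryptophan hydroxylase 2, which catalyses the rate-limiting step of serotonin synthesis in neurons (chromosome 10, 115078641 to 115185022, minus strand). Values were 3.16 to 4.45 (median 3.80) in SD and 4.78 to 8.91 (median 7.38) in HFD-STZ nerve. The groups did not overlap, and Tph2 rose by 3.49 ± 0.50 (SE), or 11.3-fold (adjusted p = 0.0132). An exact permutation test of the difference, two-sided over the 12870 splits of 16 samples into 8 and 8, gave p = 0.0001554, the smallest this design allows. Every gene whose groups do not overlap has this p here, so it adds nothing to the lack of overlap.

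The rest of the choline and serotonin pathway did not move in this way. Of 18 listed genes, 16 passed the filter on low values, and Chat and Slc18a3, which make and package acetylcholine, did not. Apart from the 2 DEGs, none passed the adjusted test, and the median difference of the 16 was -0.03. Tph1, the tryptophan hydroxylase of peripheral tissues and mast cells, was lower at -0.60 ± 0.19 (SE, unadjusted p = 0.00674). The serotonin transporter gene Slc6a4 had a difference of -0.52 ± 0.28 and the decarboxylase gene Ddc one of -0.07 ± 0.23, both with unadjusted p above 0.05.

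The remaining DEGs encode membrane proteins and a non-coding RNA. Sez6l, a transmembrane protein of the seizure-related gene family expressed in neurons (chromosome 5, 112419151 to 112577185, minus strand), had the smallest adjusted p. Its values were 4.29 to 5.52 (median 5.14) in SD and 5.80 to 7.94 (median 7.19) in HFD-STZ nerve, without overlap. It rose by 2.12 ± 0.26 (SE), or 4.35-fold (adjusted p = 0.00457).

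Plppr4, a phospholipid phosphatase-related protein known from neurons (chromosome 3, 117319139 to 117360876, minus strand), had values of 3.82 to 4.78 (median 4.25) in SD and 4.88 to 6.49 (median 5.94) in HFD-STZ nerve. It rose by 1.66 ± 0.23 (SE), or 3.15-fold (adjusted p = 0.0112), and here too the groups did not overlap. Over all tested genes, 7 (0.0392%) were higher and 4 (0.0224%) lower in HFD-STZ nerve without overlap of the groups. Beside Plppr4, the higher genes were Sez6l, Tph2, Cela1, Tcerg1l, Btg1 and 1190002N15Rik, and the lower genes were Cerkl, Hnrnpm, Mcmbp and Gm43737.

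Kcnj14 encodes an inwardly rectifying potassium channel (chromosome 7, 45816460 to 45824782, minus strand). Values were 3.15 to 4.63 (median 4.20) in SD and 4.61 to 7.71 (median 6.54) in HFD-STZ nerve, a rise of 2.46 ± 0.39 (SE, adjusted p = 0.0258). Replicate 6 alone overlapped the SD range. Of 15 tested inward rectifier and leak potassium channel genes, Kcnj14 was the only one past an unadjusted p of 0.05, and the median difference of the 15 was 0.03.

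1700047G03Rik is annotated as a long intergenic non-coding RNA (chromosome 15, 11964276 to 11970086, plus strand). Its values were 2.83 to 4.69 (median 3.84) in SD and 4.36 to 8.49 (median 7.39) in HFD-STZ nerve, a rise of 3.29 ± 0.53 (SE, adjusted p = 0.0258). Sez6l is overlapped on the opposite strand by Gm6588, Plppr4 by the miRNA gene Gm22408, and 1700047G03Rik on its own strand by Gm24074. The libraries did not keep strand according to the study's methods, so reads in these overlaps cannot be assigned to a strand.

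**Figure D2:**
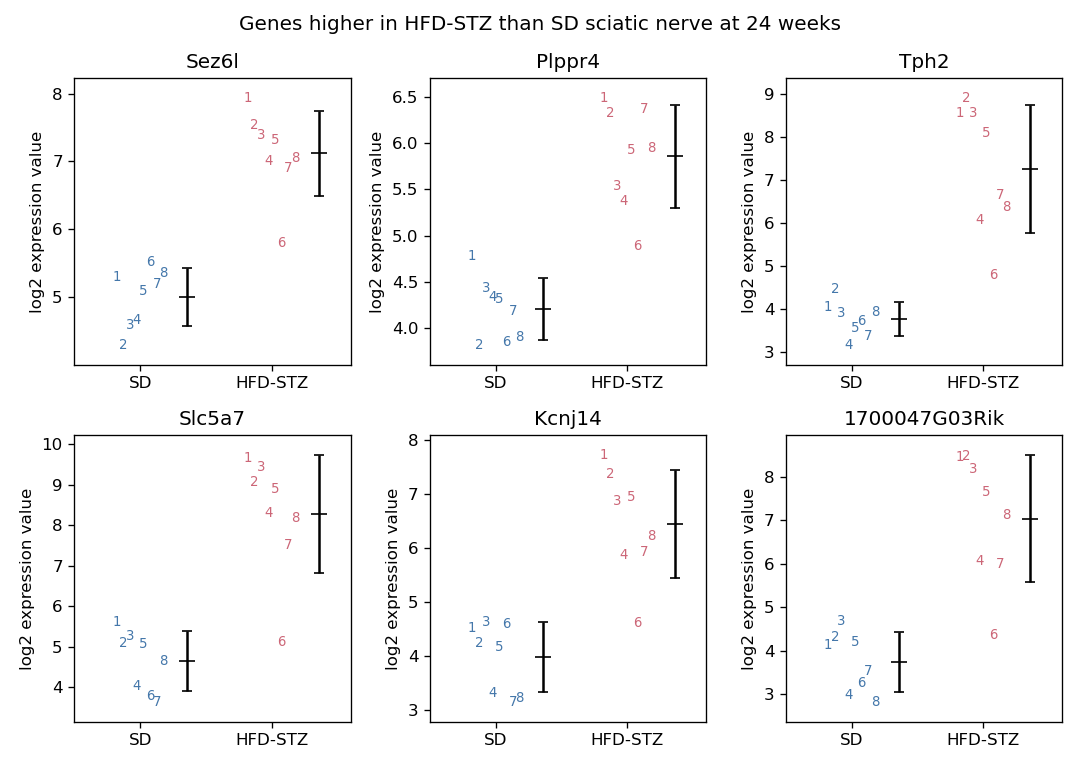
Log2 expression of the 6 DEGs in each sample, with the SD replicates 1 to 8 in blue numerals and the HFD-STZ replicates 1 to 8 in red, and the mean ± SD in black. Replicate 6 is the lowest HFD-STZ sample in all 6 panels.

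Replicate 6 of HFD-STZ had the lowest value of its group in 11 of the 12 genes with the smallest p among the higher genes. Without it, 19 genes passed the adjusted test, all of them higher and including all 6 DEGs. Without replicate 7, 10 genes passed, again including the 6. Plppr4, Sez6l, Slc5a7 and Tph2 passed in all 16 fits with a sample left out, whereas 1700047G03Rik did not pass in 12 of them and Kcnj14 in 10, with adjusted p reaching 0.0849 for both. With all listed genes below the limit of 22 tested and no filter on low values, Sez6l alone passed, and with the skeletal muscle level as a covariate Plppr4, Sez6l, Slc5a7 and Tph2 passed.

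The next genes by p had adjusted p between 0.0883 and 0.133 and did not pass. Ubd (2.93 ± 0.53), an interferon- and TNF-inducible ubiquitin-like protein, Saa3 (2.69 ± 0.49), an acute-phase protein of fat and macrophages, and Itgad (3.21 ± 0.59), the alpha D integrin of macrophages, each had a higher mean in HFD-STZ nerve with adjusted p = 0.0883. Cela1, an elastase, was higher by 1.03 ± 0.20, with 7.42 to 8.10 in SD and 8.22 to 9.46 in HFD-STZ nerve. Mest, an imprinted gene known from enlarging fat cells, was higher by 1.84 ± 0.36, with 8.72 to 9.46 in SD and 8.75 to 12.32 in HFD-STZ nerve.

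Among lower genes, none passed the adjusted test. The smallest p belonged to Rnd1, with 6.93 to 8.94 in SD and 6.30 to 7.35 in HFD-STZ nerve, a difference of -1.11 ± 0.24 (SE, adjusted p = 0.271). Cerkl (-0.43 ± 0.10) and Hnrnpm, a splicing factor (-0.20 ± 0.05), differed little in size but without overlap. Acsm3, a medium-chain acyl-CoA synthetase, and Tat, the tyrosine aminotransferase, had differences of -1.46 ± 0.37 and -1.22 ± 0.32. Other genes among the 12 lowest p were Dgcr8, Tst, Aldh4a1, Wee1, Fasn, Sgk1 and Ncoa5, at -0.23 to -1.04, with adjusted p up to 0.515.

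Genes of lipid metabolism were examined next, because dyslipidaemia and nerve triglycerides (TGs) were the concern of the study. Of 16 tested fatty acid synthesis and desaturation genes, 15 had a lower mean in HFD-STZ nerve, against 49.8% of all genes, and 6 had an unadjusted p under 0.05, against 2.69% of all. No member passed the adjusted test, and the median difference was -0.33. Fasn, the fatty acid synthase, had values of 13.75 to 16.02 (median 14.67) in SD and 13.30 to 14.05 (median 13.78) in HFD-STZ nerve. Its difference was -1.04 ± 0.27 (SE, unadjusted p = 0.00121), so the highest HFD-STZ samples reached only the lower part of the SD range.

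The acetyl-CoA carboxylases, which make the malonyl-CoA used by Fasn, were lower by -0.67 ± 0.20 for Acaca and -0.98 ± 0.35 for Acacb. Acly, which makes cytosolic acetyl-CoA, had a difference of -0.56 ± 0.23, Me1, which supplies NADPH, one of -0.36 ± 0.15, and the desaturase gene Scd2 one of -0.29 ± 0.12. Without replicate 7, 4 members instead of 6 had an unadjusted p under 0.05. The mean log2 value of adipocyte markers (Adipoq, Plin1, Cidec, Lep, Lipe, Fabp4 and Cfd) was 10.52 to 13.17 (median 12.45) in SD and 11.30 to 14.11 (median 13.50) in HFD-STZ nerve. With that level as a covariate 8 members had a lower value with p under 0.05. This covariate also raised the count over all 17850 genes, to 1208 lower and 1024 higher from 480 and 589. A listed gene that is also a marker is in part fitted to itself.

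Triglyceride synthesis enzymes were lower in 9 of 13 cases, against 49.8% of all genes, at a median of -0.04. Of them, 1 had an unadjusted p under 0.05, against 3.3% of all genes that were higher with such a p. It was the monoacylglycerol acyltransferase gene Mogat2, higher by 0.76 ± 0.25. Adipocyte regulators and thermogenic genes were lower in 6 of 9 cases (49.8% of all genes), at a median of -0.27, and none had such a p.

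Most genes of lipid storage, release and uptake had higher means. Of 12 lipid droplet proteins, 9 were higher, against 50.2% of all genes, and 3 had an unadjusted p under 0.05, against 3.3% of all, at a median of 0.28. G0s2, an inhibitor of the TG lipase of fat cells, differed by 0.73 ± 0.19, Hilpda, a lipid droplet protein induced by hypoxia, by 0.35 ± 0.10, and Plin4, a coat protein of lipid droplets, by 1.12 ± 0.49. Plin4 lost this p in 10 of the 16 fits with a sample left out. Without replicate 6, 6 of the 12 had such a p, against 621 of all 17800 genes that were higher with it. With the adipocyte level as a covariate, 2 higher members and 1 lower member had it, against 1024 higher and 1208 lower of all 17850 genes.

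Among 12 lipases and regulators, 9 were higher, against 50.2% of all genes, and 4 had an unadjusted p under 0.05, against 3.3% of all, at a median of 0.26. With the adipocyte level as a covariate, 6 were higher and 6 lower, at a median of -0.04. In that fit 3 higher and 2 lower members had such a p, against 1024 higher and 1208 lower of all 17850 genes. Lipf, gastric lipase, had the largest difference, 2.19 ± 0.53, with values of 2.32 to 4.41 (median 2.97) in SD and 2.59 to 6.80 (median 5.85) in HFD-STZ nerve. Among the fits with a sample left out, it passed the adjusted test only without replicate 7. Angptl4, an inhibitor of lipoprotein lipase, differed by 0.64 ± 0.17, the lysosomal lipase gene Lipa by 0.18 ± 0.07 and the monoglyceride lipase gene Mgll by 0.34 ± 0.16. Mgll lost its unadjusted p under 0.05 in 10 of the 16 fits with a sample left out.

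Of 16 fatty acid uptake and binding genes, 14 were higher (50.2% of all genes) and 2 had an unadjusted p under 0.05 (3.3% of all), namely Ffar2, a receptor for short-chain fatty acids (1.22 ± 0.40), and Fabp5, a fatty acid-binding protein (0.29 ± 0.12). This number was 5 without replicate 6 and 5 without replicate 7. The phospholipase gene Pla2g2e (1.42 ± 0.33) and the acyltransferase gene Lpgat1 (0.87 ± 0.26), both among the genes the study named, had unadjusted p = 0.000432 and 0.0034. Lpl (0.62 ± 0.49), Cd36 (0.70 ± 0.41) and Dgat2 (0.58 ± 0.40), which hydrolyse, take up and esterify lipid, had unadjusted p above 0.05, and with the adipocyte level as a covariate Lpl and Dgat2 had differences below 0, at -0.16 and -0.07. The listed genes of the study were chosen on these samples, so their direction is no independent evidence.

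Adipokines and genes of fat expansion, many of them made chiefly by fat cells, included large differences. Of 10 tested, 6 were higher, near the 50.2% of all genes, and 4 had an unadjusted p under 0.05, against 3.3% of all, at a median of 0.46. Lep, leptin, had values of 7.56 to 11.57 (median 10.43) in SD and 9.82 to 14.19 (median 12.98) in HFD-STZ nerve, a difference of 2.51 ± 0.64. Nnat, an imprinted gene expressed in fat and neurons, differed by 2.28 ± 0.55, and Npr3, the natriuretic peptide clearance receptor, by 0.85 ± 0.31. With the adipocyte level as a covariate, 4 members were higher and 5 lower with p under 0.05, and the median became -0.19. In that fit 1024 of all 17850 genes were higher and 1208 lower with such a p. Lep is itself 1 of the 7 markers behind this level, so its value in that fit is in part fixed by the covariate. The adipocyte level of replicate 6, at 11.30, was the lowest of the HFD-STZ samples, and that of replicate 7, at 11.43, was next.

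**Figure D3:**
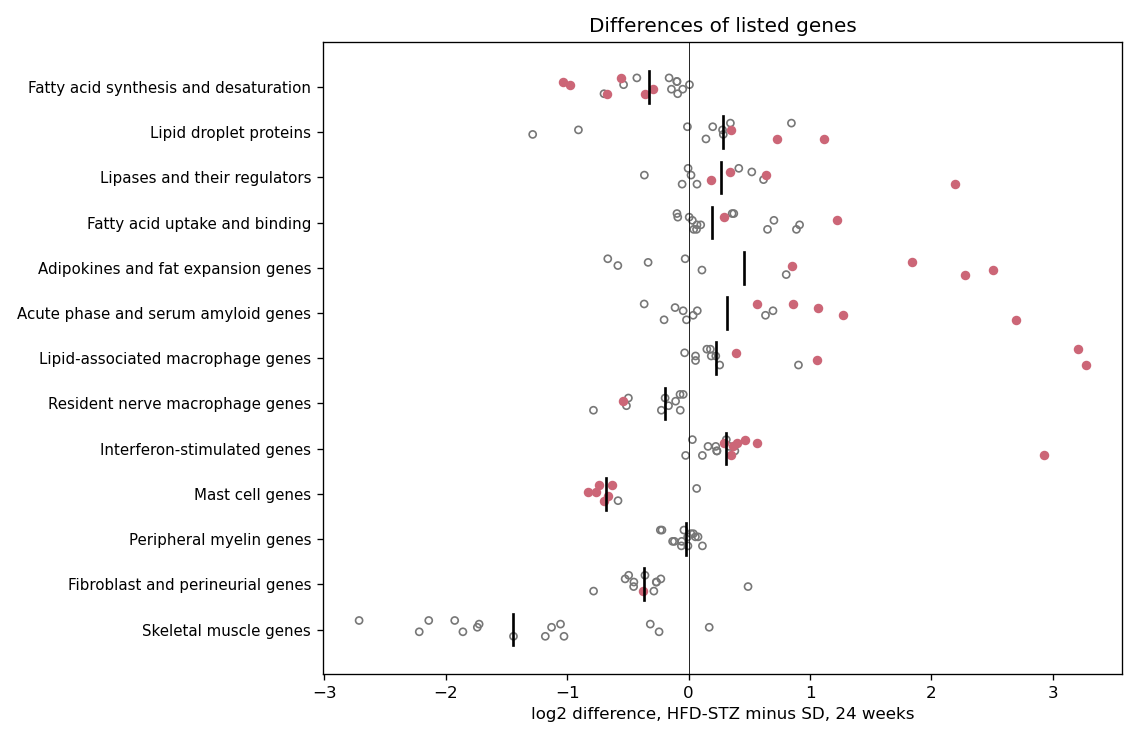
Log2 difference (HFD-STZ minus SD) of every tested member of 13 gene lists, 1 point per gene, with filled points for an unadjusted limma p under 0.05 and a black bar at the median of the list. Fatty acid synthesis (median -0.33) and mast cell genes (median -0.68) lie to the left of 0, and interferon-stimulated genes (median 0.31) to the right.

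Inflammatory genes were divided by cell and stimulus. Of 13 lipid-associated macrophage genes, 12 were higher (50.2% of all genes) and 4 had an unadjusted p under 0.05 (3.3% of all), at a median of 0.22. Mmp12, the macrophage elastase, had values of 4.17 to 7.42 (median 5.76) in SD and 6.44 to 11.21 (median 8.94) in HFD-STZ nerve, a difference of 3.27 ± 0.68 (SE, unadjusted p = 0.000171). Itgad had 2.69 to 4.37 (median 3.41) in SD and 3.85 to 8.67 (median 6.78) in HFD-STZ nerve. Itgax, the CD11c integrin, differed by 1.05 ± 0.40 and Lgals3, galectin-3, by 0.39 ± 0.15. With the adipocyte level as a covariate, 2 members were higher with a p under 0.05, against 1024 of all 17850 genes.

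Genes of resident nerve macrophages had the other sign. All 11 tested were lower, against 49.8% of all genes, at a median of -0.19. Only 1, the fractalkine receptor gene Cx3cr1 (-0.54 ± 0.22), had an unadjusted p under 0.05, against 2.69% of all. With the adipocyte level as a covariate 4 had it, in a fit where 1208 of all 17850 genes were lower with such a p. General macrophage markers differed by -0.09 between the group means. Without replicate 7, 9 of the 11 were lower and none had such a p.

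Of 14 acute-phase genes, 9 were higher, a share not far from the 50.2% of all genes, and 5 had an unadjusted p under 0.05, against 3.3% of all, at a median of 0.32. Saa3 values were 2.76 to 4.20 (median 3.42) in SD and 3.66 to 7.55 (median 6.55) in HFD-STZ nerve. Serpina3n, a serine protease inhibitor, was higher in 8 of 8 runs, by 0.56 ± 0.13 (SE, unadjusted p = 0.00037). Il1rn, the interleukin-1 receptor antagonist, differed by 1.06 ± 0.37, Hp, haptoglobin, by 1.27 ± 0.46 and Lrg1 by 0.86 ± 0.37. With the adipocyte level as a covariate the median was 0.05. No member of the chemokine (18 tested), MHC class II (8 tested) or T cell (6 tested) lists had an unadjusted p under 0.05.

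Interferon-stimulated genes, which cells switch on after type I or II interferon binds its receptor, were higher in 16 of 17 cases, against 50.2% of all genes, and 7 had an unadjusted p under 0.05, against 3.3% of all. The median was 0.31. Irf7, the transcription factor that amplifies the interferon response, had values of 9.48 to 10.45 (median 9.86) in SD and 10.19 to 10.71 (median 10.51) in HFD-STZ nerve, a difference of 0.56 ± 0.12 (SE, unadjusted p = 0.00025, adjusted p above 0.05). The ranges overlapped, and the SD samples reached into the lower HFD-STZ values.

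The antiviral sensors and transducers followed with smaller differences, 0.46 ± 0.16 for Oas1a, 0.39 ± 0.16 for Stat2, 0.36 ± 0.15 for Usp18, 0.29 ± 0.13 for Oasl2 and 0.35 ± 0.16 for Isg15. Gbp2, at -0.03 ± 0.12, was the only member below 0. The number with p under 0.05 was 6 without replicate 7, 4 without SD replicate 5 and 3 with the skeletal muscle level as a covariate. Over all genes tested, 746, 480 and 436 were higher with such a p in these 3 fits, against 589 in the main fit. Muscle markers ranged from 6.78 to 17.39 in SD, highest in replicate 5, and from 6.58 to 12.41 in HFD-STZ nerve. Oas1a belongs to a cluster of similar genes whose reads may be shared.

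Promoters of the interferon group were searched for the core of the interferon-stimulated response element, read as GAAA, any 2 bases and GAAA, on both strands of the same RefSeq windows. It was present in 7 of the 14 windows found for 13 of the 17 genes, against 3.44% of all windows. Of the members with an unadjusted p under 0.05, Oas1a, Stat2 and Isg15 had a match, and the windows of Oas1a and Stat2 are shown as examples with the matches in capitals.
Oas1a, chr5:120907476-120907775, minus strand: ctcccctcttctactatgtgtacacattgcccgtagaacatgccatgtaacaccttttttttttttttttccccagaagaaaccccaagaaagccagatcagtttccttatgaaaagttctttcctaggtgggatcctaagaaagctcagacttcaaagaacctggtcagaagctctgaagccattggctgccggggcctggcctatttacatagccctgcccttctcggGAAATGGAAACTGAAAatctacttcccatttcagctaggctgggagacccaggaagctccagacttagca
Stat2, chr10:128270248-128270547, plus strand: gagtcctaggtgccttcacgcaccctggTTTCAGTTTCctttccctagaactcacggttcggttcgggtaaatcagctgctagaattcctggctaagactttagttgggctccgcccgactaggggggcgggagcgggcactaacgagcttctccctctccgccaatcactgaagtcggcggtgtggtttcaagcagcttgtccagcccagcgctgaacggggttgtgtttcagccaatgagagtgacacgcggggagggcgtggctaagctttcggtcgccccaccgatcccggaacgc
In Oas1a a pair of overlapping matches began at -20 and -14, and in Stat2 the match began at -222 in the complement form. Irf7 and Ubd, the members with the smallest p, had no match in their windows.

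Mast cell genes were lower. Of 8 tested, 7 had a lower mean in HFD-STZ nerve, against 49.8% of all genes, and 6 of them had an unadjusted p under 0.05, against 2.69% of all. The median was -0.68, and none passed the adjusted test. Cpa3, the carboxypeptidase of mast cell granules, had values of 8.94 to 10.33 (median 9.51) in SD and 7.74 to 10.04 (median 8.72) in HFD-STZ nerve, a difference of -0.83 ± 0.30. Hdc, which makes histamine, had 5.95 to 6.55 in SD and 4.25 to 6.12 in HFD-STZ nerve (-0.66 ± 0.22) and was lower in all 8 runs, as were 0.465% of all genes.

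The subunits of the high-affinity IgE receptor differed by -0.76 ± 0.25 for Ms4a2 and -0.74 ± 0.26 for Fcer1a, and the proteases by -0.70 ± 0.29 for Mcpt4, -0.63 ± 0.28 for Tpsb2 and -0.58 ± 0.31 for Cma1. Kit, which other cells of the nerve also express, was at 0.07 ± 0.28. Without replicate 7, the lowest sample for most of these genes, all 8 were lower and 4 had a p under 0.05.

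**Figure D4:**
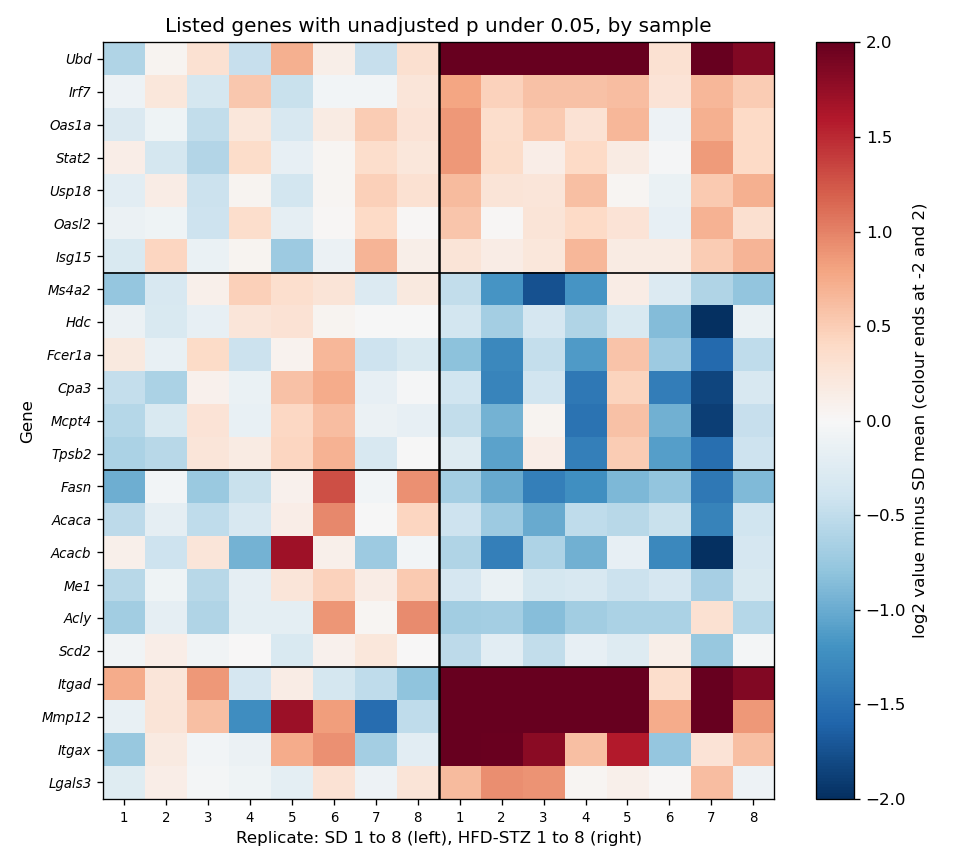
Log2 value minus the SD mean for each sample (columns, SD replicates 1 to 8 left and HFD-STZ replicates 1 to 8 right) and for each gene with an unadjusted p under 0.05 in the interferon, mast cell, fatty acid synthesis and lipid-associated macrophage lists (blocks from top to bottom). Red is above and blue below the SD mean, with the colours ending at -2 and 2, and Itgad in HFD-STZ replicate 6 is near the SD level.

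The myelinating part of the nerve differed little. None of 14 peripheral myelin genes had an unadjusted p under 0.05, and the median was -0.02. Of 16 Schwann cell identity and repair genes, Olig1 alone had such a p, at -0.56 ± 0.23 and a low level. Of all genes, 2.69% were lower with such a p. Among 12 node and paranode genes, Sptbn4, the spectrin of nodes, differed by 0.89 ± 0.41 with a value of 9.01 in replicate 7, against 6.30 in the next HFD-STZ sample. The sensory neuron list had 9 tested members, all higher (50.2% of all genes), and none had a p under 0.05. Their median of 0.68 became 0.10 without replicate 7.

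Fibroblast and perineurial genes were lower in 11 of 12 cases (49.8% of all genes), with a median of -0.37, and 1 had an unadjusted p under 0.05 (2.69% of all). With the adipocyte level as a covariate 9 had such a p, in a fit where 1024 of all 17850 genes were higher and 1208 lower with it. Without replicate 7 the median was -0.18, no member was lower with such a p and 1 was higher. Skeletal muscle genes were lower in 14 of 15 cases, at a median of -1.44 that was -0.73 without SD replicate 5, and none had such a p. Of 19 clock genes, 14 were lower (49.8% of all genes) and 4 had a p under 0.05 (2.69% of all). These were Nfil3 (-0.65 ± 0.23), Per1 (-0.39 ± 0.15), Arntl (-0.49 ± 0.20) and Npas2 (-0.67 ± 0.30). Without replicate 7, 3 were lower and 1 higher with such a p. Npas2 lost it in 9 and Arntl in 2 of the 16 fits with a sample left out. No oxidative phosphorylation subunit (18 tested) had such a p. In the glycolysis list (20 tested) Slc2a1, the glucose transporter of nerve barriers, had it at -0.38 ± 0.16. Slc2a1 lost this p in 5 of the 16 fits with a sample left out, among them those without HFD-STZ replicate 6 or 7.

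**Figure D5:**
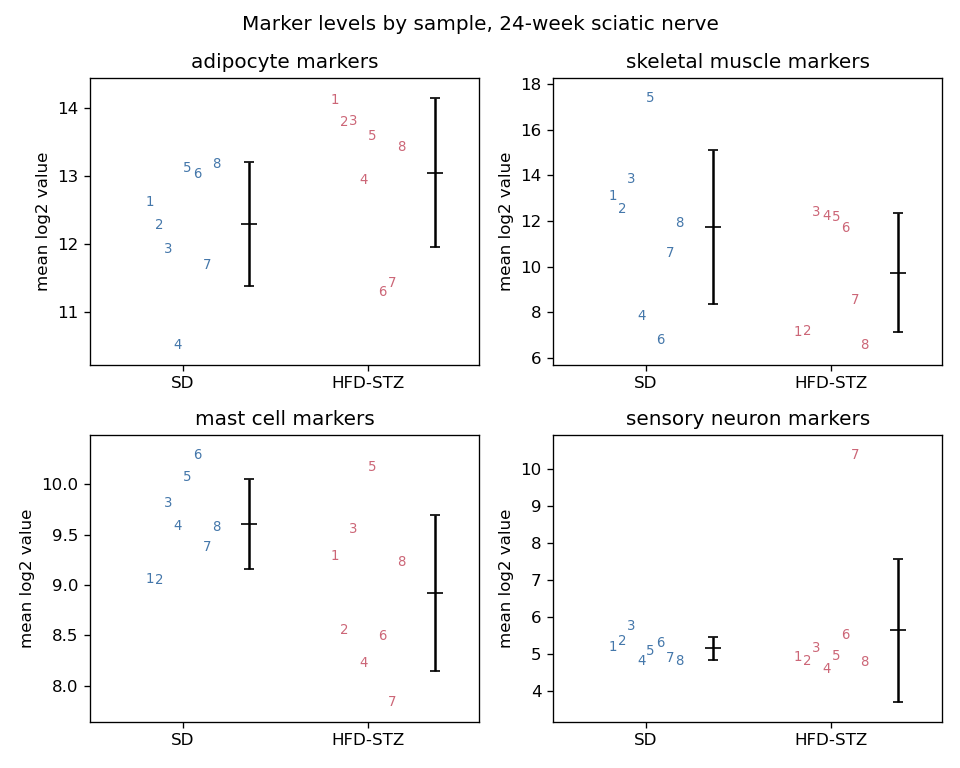
Mean log2 value of the marker genes of 4 cell types in each sample, with SD replicates in blue numerals and HFD-STZ replicates in red, and the mean ± SD in black. HFD-STZ replicate 7 is alone at 10.37 for sensory neuron markers, and SD replicate 5 is highest for skeletal muscle.

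Whether the differences were already present at 16 weeks of age was asked with 5 HFD-STZ and 5 SD samples of that age. No gene of 17874 passed an adjusted p of 0.05 in the limma test of the change in the difference between ages, and 836 (4.68%) had an unadjusted p under 0.05. The 6 DEGs had 16-week differences above 0, from 0.42 ± 0.29 for Plppr4 to 2.12 ± 0.48 for Slc5a7, all smaller than at 24 weeks. These genes were chosen for their 24-week differences, so smaller values in other samples do not by themselves show a change with age. The unadjusted limma p at 16 weeks was 0.000864 for Slc5a7, 0.0193 for 1700047G03Rik and 0.0252 for Kcnj14. For Tph2, Plppr4 and Sez6l it was above 0.05. The change between ages was 2.69 ± 0.73 for Tph2 and 2.31 ± 0.75 for 1700047G03Rik, with adjusted p = 0.757 in both. In the 16-week comparison itself no gene of 17881 passed and 1504 (8.41%) had an unadjusted p under 0.05.

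At 16 weeks, 8 of the 17 interferon-stimulated genes had a higher mean, against 54.3% of all genes, and none of these an unadjusted p under 0.05, against 3.99% of all genes. Of the mast cell genes, 6 of 8 were higher at 16 weeks and none had such a p in either direction. Of the fatty acid synthesis genes, 14 of 16 were lower, against 45.7% of all genes, and 2 had such a p, against 4.42% of all. Leptin had a 16-week difference of 2.55, with unadjusted p = 0.00751.

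HFD-STZ nerve was then set against HFD nerve of the same age, since these groups share the diet and differ in STZ. No gene of 18121 passed an adjusted p of 0.05 with limma, 1014 (5.6%) had an unadjusted p under 0.05, and the smallest adjusted p was 0.785. All 6 DEGs had a lower mean in HFD-STZ than in HFD nerve, from -0.03 ± 0.37 for Sez6l to -1.93 ± 0.64 for Tph2, whose HFD values were 7.67 to 10.59. Itgad differed by -1.93 and Saa3 by -1.04 in the same direction.

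Most interferon-stimulated and mast cell genes had the same sign of difference relative to HFD nerve as relative to SD nerve. The exceptions were Ubd, which had the largest difference of its list from SD nerve and was at -1.16 relative to HFD nerve, Gbp2 and Kit. The comparisons with SD and HFD share the 8 HFD-STZ samples. Relative to HFD, 16 of 17 interferon-stimulated genes were higher, against 47.9% of all genes, and 7 had an unadjusted p under 0.05, against 1.42% of all. Irf7 was at 0.75, Usp18 at 0.54 and Isg15 at 0.53. All 8 mast cell genes were lower, against 52.1% of all genes, and 6 had such a p, against 4.17% of all, with Ms4a2 at -1.02 and Cpa3 at -0.99. By contrast, fatty acid synthesis genes had a median of 0.04 relative to HFD nerve and 9 of 16 were higher, and acute-phase genes were lower in 13 of 15 cases. Whether the difference from SD and that from HFD were unequal was not tested.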

How the data were processed

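According to the study's methods, the authors cleaned the reads, mapped them to mm10 (GRCm38) with HISAT2, counted them per gene with featureCounts, calculated FPKM values and used DESeq2. The submitters' processing notes name the same tools without versions. The labels and the study's methods name different library kits, and the sources used here do not say which applies to these files. The deposited values, 1 per gene and sample, are on a log2 scale, and the normalization the authors applied is not given in the sources used here. The study's methods give an approximate number of reads per sample, but the deposited values hold no counts, so the depth behind each value is unknown and no counting interval is given.

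The deposited log2 values of the 8 HFD-STZ and 8 SD samples at 24 weeks were compared without covariates in limma 3.58.1 (R 4.3.3) with a variance trend, since the values are not counts. Genes whose mean log2 value over the 16 samples reached the log2 of 9.99 were kept, genes with any value above 22 in the series were dropped, and p-values were adjusted by Benjamini-Hochberg over all 17850 genes. Exact permutation tests are two-sided. Fold changes are 2 to the power of the log2 difference. The named genes are those past the adjusted threshold, the 12 smallest p in each direction, up to 4 with the smallest p per list (those with p under 0.05 are given, and further members with such a p are named), and genes the study named. A few genes that meet this rule are not reported here. The members, lists and tests were chosen with earlier results of these data known. Replicate numbers follow the order of the samples and only name them. The labels do not say whether samples of a group were separate mice or pools, so p-values measure the spread between these samples. The runs of numbers in the sample titles were used as an alternative block. The deviations of the 2 samples in a run correlated at -0.416 to 0.504, above 0.1 in 3 of 8 runs. These correlations showed no steady pairing across genes, and an effect of the run on single genes was not tested.

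The same fit was run for HFD-STZ against HFD at 24 weeks, HFD-STZ against SD at 16 weeks and the change of the difference between ages. Alternatives were no filter, a mean of at least 5, genes above 22 kept, no trend, robust moderation, a block, sample centring, all 8 groups in 1 fit, adipocyte or muscle level as covariate and each sample left out. In simulated data of this design with 17850 genes, 200 changed genes were recovered at 38.5% for a log2 change of 0.5, 79% for 1 and 98% for 2. Unchanged genes that passed numbered 0, 9 and 9. The simulated noise was normal and independent between genes, which that of these samples need not be. The rates also depend on the number of changed genes, so they may not hold for this comparison. Gene positions are from GENCODE M21 (GRCm38) and promoters from RefSeq (GRCm38.p6), read with Python 3.11.15 and pandas 2.3.3, and figures were drawn with matplotlib 3.10.9.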

Additional observations from a re-analysis of the deposited data

Results flagged for a closer look

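The following samples lay far from the other 7 of their group by Dixon's test for 8 values. There were 10 among 192 tests, and chance alone flags about 1 in 20 groups. In HFD-STZ replicate 7, sensory neuron markers had a mean log2 value of 10.4 and motor neuron markers one of 4.44, Sptbn4 was high at 9.01, and Hdc (4.25), Pcyt1a (12.0) and Per1 (9.87) were low. In HFD-STZ replicate 6, Mest was low at 8.75. In SD replicate 5, Acacb was high at 12.1. In SD replicate 6, Npas2 was high at 8.69 and red blood cell markers were low at 7.18.

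Outside the genes tested, HFD-STZ replicate 7 held 23 genes with values above 22, whereas the SD samples held 0. Prph, Snap25 and Uchl1, neuronal genes that stayed below 22, were at 14.55, 14.53 and 15.03 in this replicate and at 8.33 to 9.37, 8.21 to 9.15 and 11.35 to 12.48 in the other 15 samples.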

How the results depend on the processing

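Of the differences of single genes, 2 changed sign under an alternative, Lpl (-0.16) and Dgat2 (-0.067) with the adipocyte covariate. The number of genes past the adjusted p was 6 with a mean of at least 5, with genes above 22 kept, without trend, with robust moderation and with centred samples, and the 6 DEGs were shared each time. It was 1 without a filter on low values (Sez6l), 16 with all 8 groups in 1 fit (14 higher, the 6 DEGs shared), 20 with the adipocyte covariate (8 higher, the 6 shared) and 4 with the muscle covariate (Plppr4, Sez6l, Slc5a7 and Tph2). Leaving out each sample gave 4 to 19. With the runs of title numbers as a block it was 5, with 4 of the DEGs shared, Itgad added and Kcnj14 and Sez6l lost. Of the SD samples 2 of 8, and of the HFD-STZ samples 2 of 8, correlated best with their own run. The number past an unadjusted p of 0.05 was 1991 (1010 higher, 981 lower) without a filter, 2232 (1024 higher, 1208 lower) with the adipocyte covariate, and 886 higher with all groups in 1 fit, and leaving out a sample gave 789 to 1271 (452 to 746 higher, 337 to 616 lower). Genes without overlap numbered 11 to 31 when a sample was left out (31 without HFD-STZ replicate 6, 20 without HFD-STZ replicate 7, and 18, 19, 27 and 17 without SD replicates 2, 3, 4 and 8). Without a filter, 1 gene passed the test of the change between ages and 6 passed HFD-STZ against HFD. The causes of these changes were not tested. Counts of lists without HFD-STZ replicate 6 were added after seeing the data. The values hold no counts, so what depth limits for single genes cannot be given.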

Other observations

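Several genes known to be induced by the glucocorticoid receptor had a lower mean in HFD-STZ than in SD nerve at 24 weeks. These 13 genes were put together after their values had been seen, and Sgk1, Tat and Per1 were already named above. Their number is therefore a description, and the shares of all genes given beside it are no test. Of them, 12 were lower and 8 had an unadjusted p under 0.05, against 2.69% of all genes, at a median difference of -0.39, and none passed the adjusted test. Fkbp5, a co-chaperone of the receptor, differed by -0.55 ± 0.20 (SE), with 10.78 to 12.15 in SD and 10.25 to 11.27 in HFD-STZ nerve. Sgk1, a kinase of salt and stress signalling, was lower in 8 of 8 runs (-0.44 ± 0.12), as was the clock gene Per1 (-0.39 ± 0.15). Klf9 (-0.31 ± 0.08), Zbtb16 (-0.78 ± 0.28) and Tat (-1.22 ± 0.32) were lower in 7 of 8 runs, and Tsc22d3 (-0.34 ± 0.16) and Dusp1 (-0.50 ± 0.23) in 6 of 8. Cebpd (-0.05 ± 0.10), Pdk4 (-0.46 ± 0.41), Errfi1 (-0.13 ± 0.09), Mt1 (0.02 ± 0.22) and Mt2 (-0.24 ± 0.28) had unadjusted p above 0.05. Without HFD-STZ replicate 7 all 13 were lower and 7 had such a p. Relative to HFD nerve, 12 were lower, 3 of them with such a p, against 4.17% of all genes. At 16 weeks 11 were lower relative to SD, 6 with such a p, against 4.42% of all. The 24-week comparisons share the HFD-STZ samples.

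Mest and Peg3, both imprinted genes, were among the 19 genes that passed the adjusted test without HFD-STZ replicate 6. Peg3 had values of 10.74 to 11.13 in SD and 10.75 to 12.38 in HFD-STZ nerve, a difference of 0.66 ± 0.16 in all 16 samples. Oxtr, the oxytocin receptor, was also in that set, with 7.96 to 8.70 in SD and 8.41 to 11.07 in HFD-STZ nerve, and was higher in 8 of 8 runs. Both were named after their values had been seen.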
